A study of Mus musculus with 18 samples.

Results

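Aldehyde dehydrogenases are a family of enzymes that oxidise aldehydes to carboxylic acids. Here 10 of these genes, Aldh1a1, Aldh1a2, Aldh1a3, Aldh1a7, Aldh2, Aldh3a1, Aldh3a2, Aldh1l2, Aldh6a1 and Aldh7a1, of 19938 genes measured, were followed in mouse lung fibroblasts that did or did not invade a collagen gel. The genes were chosen by symbol, with measured values of these arrays in view: Aldh3a1 because its signal follows invasion, and Aldh1a1 because it follows time. Differences of the 10 genes between fractions and between times are therefore given as a description, and calls stated for them are a description too and no test. The other 10 aldehyde dehydrogenase genes with a signal on the array serve as the rest of the family.

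The cells were MLg 2908, an established wild-type line from the lung of newborn mice of strain ddY, grown on a three-dimensional collagen gel in medium with serum. The invading fraction is the cells that had entered the gel and the non-invading fraction those still on its surface, each taken after 72 h (4 samples per fraction) or 96 h (5 per fraction), 18 samples in all. All samples come from 1 cell line, so its replicates are independent experiments and not animals. The treatment entry of all 18 samples names TGFB1 besides the assay, whereas their titles name no factor and the study marks these cells as non-treated, so exposure to TGFB1 cannot be told from the labels. Total RNA was hybridised to Affymetrix Mouse Gene 1.0 ST arrays, and signals are given on the log2 scale after robust multi-array averaging (RMA), so that differences are differences of log2 signal. The number of arrays limits the precision.

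In the cell, these enzymes work on different substrates. Aldh1a1, Aldh1a2 and Aldh1a3 turn retinaldehyde into retinoic acid, the ligand of the retinoic acid receptors, which direct growth and differentiation in the lung, and Aldh1a7 is a rodent paralog of Aldh1a1. Aldh2 removes acetaldehyde and lipid aldehydes in mitochondria. Aldh3a1 oxidises aromatic and medium-chain aldehydes, is abundant in the cornea and belongs to the genes that the aryl hydrocarbon receptor can induce, and Aldh3a2 oxidises fatty aldehydes at the endoplasmic reticulum. Aldh1l2 acts on folate in mitochondria, Aldh6a1 on the breakdown of valine and pyrimidines and Aldh7a1 on that of lysine.

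Promoter windows were held for 5 of the 10 genes (Aldh1a1, Aldh1a2, Aldh1a7, Aldh3a2 and Aldh6a1; 7 windows, from RefSeq on build GRCm38.p6). For Aldh1a1, Aldh1a7 and Aldh1a2, 1 window each is shown, because these windows carried the same pair of motifs while the signals of these related genes differed. Aldh1a1 had another window (chr19:20492333-20492582), which held neither motif and is not shown. Each line holds the 250 bases before the transcript start, 5′ to 3′ on the strand of the gene, and the capitals mark CCAAT and the octamer ATGCAAAT, both of which were picked after the sequences had been seen.
Aldh1a1, chr19:20601718-20601967, plus strand: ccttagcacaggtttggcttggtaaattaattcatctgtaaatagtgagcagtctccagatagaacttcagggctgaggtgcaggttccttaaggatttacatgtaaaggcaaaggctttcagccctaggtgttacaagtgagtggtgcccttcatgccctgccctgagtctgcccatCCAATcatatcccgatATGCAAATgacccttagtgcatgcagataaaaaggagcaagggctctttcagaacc
Aldh1a7, chr19:20727557-20727806, minus strand: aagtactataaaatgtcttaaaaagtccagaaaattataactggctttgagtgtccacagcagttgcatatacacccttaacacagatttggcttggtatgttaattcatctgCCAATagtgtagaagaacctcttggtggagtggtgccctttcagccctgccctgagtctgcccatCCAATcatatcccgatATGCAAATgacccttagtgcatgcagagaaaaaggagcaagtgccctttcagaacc
Aldh1a2, chr9:71215539-71215788, plus strand: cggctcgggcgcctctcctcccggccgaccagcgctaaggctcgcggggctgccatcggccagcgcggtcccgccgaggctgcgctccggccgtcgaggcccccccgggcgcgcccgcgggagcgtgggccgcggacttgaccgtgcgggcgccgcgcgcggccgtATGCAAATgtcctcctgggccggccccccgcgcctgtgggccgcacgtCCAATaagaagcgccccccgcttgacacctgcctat

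Of the last 100 bases before the start, 94 were identical between the Aldh1a1 window shown and that of Aldh1a7, position by position. The other Aldh1a1 window shared 30 of these 100 bases with Aldh1a7. In both windows shown a CCAAT began 72 bases and the octamer 56 bases before the start. Aldh1a2 shared 20 of its last 100 bases with the Aldh1a1 window shown, and its octamer and CCAAT began 84 and 36 bases before the start. On either strand, ATGCAAAT occurred in 1.60% of all 32851 promoter windows of this length and CCAAT in 33.9%, against 3 and 6 of the 7 windows shown or held here, and the matches to these motifs did not overlap each other. GCGTG, the core of the element bound by the aryl hydrocarbon receptor, occurred in the windows of Aldh1a2 and Aldh3a2 and in 28.2% of all, and TGACNNNGC, the core of the antioxidant response element, in that of Aldh1a2 and in 10.2% of all. These matches describe letters only.

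The signal of Aldh3a1 and Aldh2 was higher in invading than in non-invading cells at both times, and that of Aldh1l2 was lower. Aldh1a1 differed little between the fractions at 72 h, but its signal was 2.68 times as high at 96 h as at 72 h in non-invading cells and 1.99 times as high in invading cells. The remaining 6 genes differed by no more than 0.23 on the log2 scale in any of these 4 comparisons. The plot of all samples shows these patterns on axes of equal span.

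**Figure D1:**
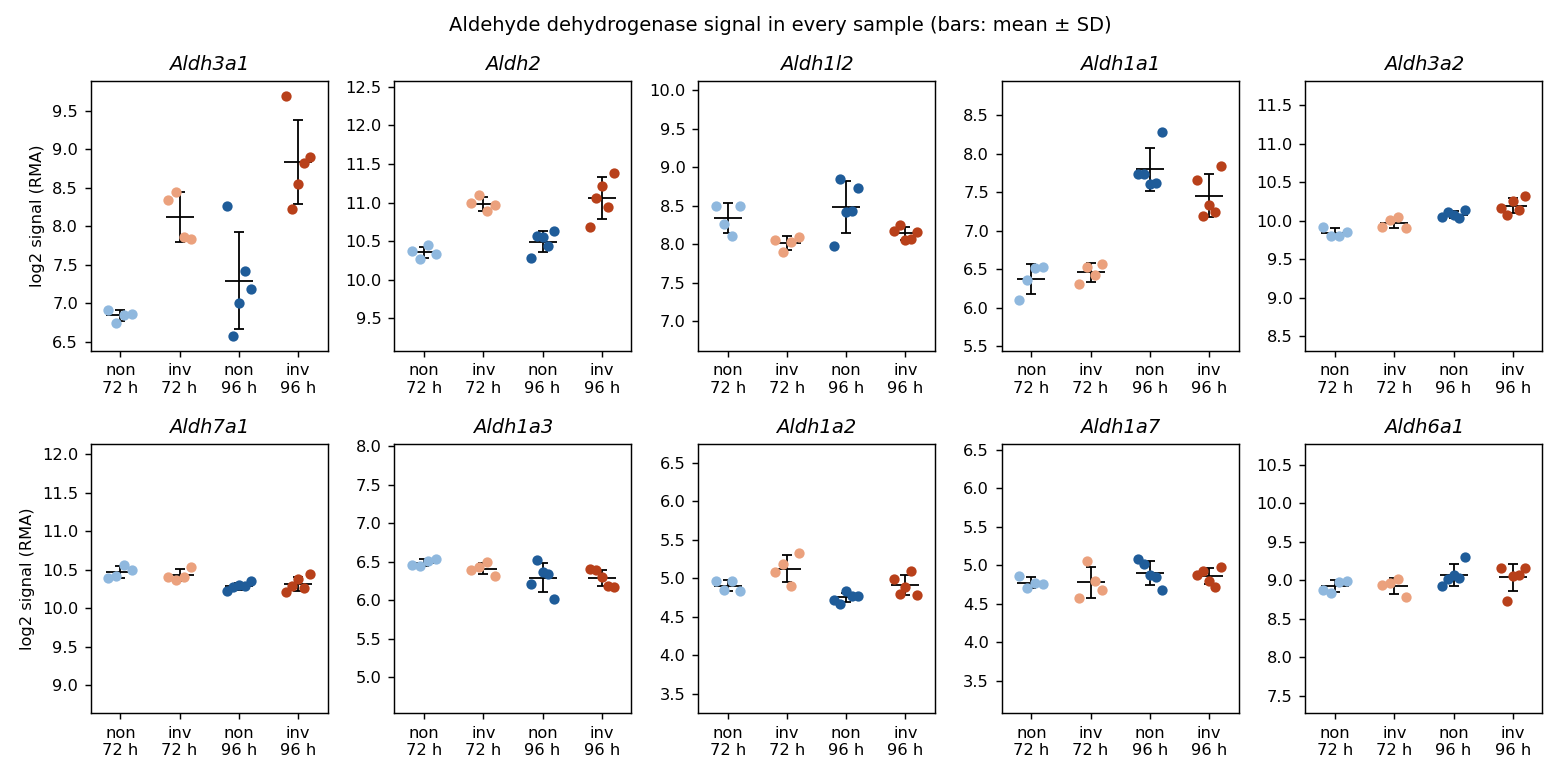
Log2 signal of the 10 genes in each of the 18 samples (points; y axis of equal span in every panel), by group on the x axis (non, non-invading; inv, invading), with mean ± SD as bars. Aldh3a1 and Aldh2 lie higher in invading cells at both times, while Aldh1a1 lies between 6.11 and 6.57 at 72 h and between 7.20 and 8.28 at 96 h.

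Aldh3a1 (probe set 10376765) had the largest difference between the fractions of the 10 genes at both times. At 72 h its log2 signal was 8.34, 8.45, 7.86 and 7.83 in the 4 invading samples and 6.91, 6.75, 6.85 and 6.86 in the 4 non-invading samples. The groups did not overlap, and the non-invading samples lay close together, between 6.75 and 6.91. The means were 8.12 ± 0.32 (SD, n = 4) and 6.84 ± 0.07 (SD, n = 4), a log2 difference of 1.28 ± 0.14 (SE) and a ratio of 2.42.

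At 96 h the Aldh3a1 signal was 9.69, 8.22, 8.54, 8.82 and 8.89 in invading samples and 8.27, 6.57, 7.00, 7.42 and 7.18 in non-invading samples. Here the fractions overlapped, since the non-invading sample of replicate 1 lay above the invading sample of replicate 2, and replicate 1 was the highest sample of either fraction. The means were 8.83 ± 0.55 (SD, n = 5) and 7.29 ± 0.63 (SD, n = 5), a log2 difference of 1.54 ± 0.32 (SE) and a ratio of 2.92. Without replicate 1 of both fractions, an alternative added after these values had been seen, the log2 difference was 1.57. Between samples of equal replicate number it lay between 1.39 and 1.71, a narrower spread than within either fraction.

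Over time the Aldh3a1 signal was higher at 96 than at 72 h by 0.72 ± 0.29 (SE) on the log2 scale in invading cells and by 0.45 ± 0.29 (SE) in non-invading cells, with overlap between the times in both. Without replicate 1 of both fractions at 96 h these differences were 0.50 and 0.20. The difference between the fractions was larger at 96 than at 72 h by 0.27 ± 0.41 (SE), which the test across all probe sets did not call (limma, adjusted p = 0.91). That contrast was not itself used to choose the genes, but it is made of differences that were, so it is not an independent test.

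Aldh2 (probe set 10533345), the mitochondrial acetaldehyde dehydrogenase, had at both times the largest difference towards invading cells after Aldh3a1. At 72 h its log2 signal was 10.99, 11.10, 10.88 and 10.97 in invading samples and 10.37, 10.27, 10.44 and 10.33 in non-invading samples. At 96 h it was 10.68, 11.06, 11.22, 10.94 and 11.38 in invading samples and 10.28, 10.57, 10.55, 10.44 and 10.63 in non-invading samples. The fractions did not overlap at either time, although at 96 h the lowest invading and the highest non-invading sample were close to each other. The log2 difference was 0.63 ± 0.07 (SE) at 72 h and 0.57 ± 0.12 (SE) at 96 h, ratios of 1.55 and 1.48. Between the times the signal differed by 0.14 ± 0.11 (SE) in non-invading and 0.07 ± 0.11 (SE) in invading cells, and the difference between the fractions was not called as different between the times (limma, adjusted p = 0.94).

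Aldh1l2 (probe set 10371332), which oxidises 10-formyltetrahydrofolate in mitochondria, had the opposite sign. At 72 h its log2 signal was 8.05, 7.89, 8.03 and 8.09 in invading samples and 8.50, 8.27, 8.10 and 8.50 in non-invading samples. At 96 h it was 8.18, 8.25, 8.06, 8.06 and 8.16 in invading samples and 7.98, 8.84, 8.42, 8.43 and 8.72 in non-invading samples. The invading samples lay below all non-invading samples at 72 h by a narrow gap, while at 96 h the fractions overlapped, with non-invading replicate 1 the lowest sample of all 10. The log2 difference was -0.32 ± 0.10 (SE) at 72 h and -0.34 ± 0.14 (SE) at 96 h. Without replicate 1 of both fractions at 96 h it was -0.47.

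Whether a signal passed an adjusted p under 0.10 over all probe sets is stated here for the 10 genes only as a description, beside the share of all genes that passed. At 72 h 2 of the 10 genes passed as higher in invading cells (Aldh2 and Aldh3a1) and 1 as lower (Aldh1l2), beside 13.0% and 13.5% of all genes. At 96 h the same 3 genes passed in the same directions, beside 16.7% of all genes higher and 14.7% lower. The fractions did not overlap for 3 of the 10 genes at 72 h and for 1 at 96 h, beside 24.8% and 18.2% of all genes. The median log2 difference of the 10 genes was 0.04 at 72 h and 0.01 at 96 h, against 0.04 and 0.02 over all genes.

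The call of Aldh1l2 was the least stable of these. At 72 h it was lost without invading replicate 2 and without non-invading replicate 1 or 4, and at 96 h without any 1 of the invading samples or of non-invading replicates 2 to 5. Its log2 difference without 1 sample lay between -0.40 and -0.27 at 72 h and between -0.46 and -0.25 at 96 h. The split of calls over all genes also moved with the scaling. With the values quantile normalized once more, 5043 genes passed as higher and 2328 as lower in invading cells at 72 h, in place of 2590 and 2700, and 7695 and 2494 at 96 h, in place of 3322 and 2933. With each array centred on its median, 3546 were higher and 2331 lower at 72 h. Of the 10 genes, 4 then passed as higher at each time and none as lower after the repeated quantile normalization, and 4 and 1 at 72 h after centring, with Aldh1a2 and Aldh3a2 added in each of these cases.

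Aldh1a1 (probe set 10461979) had the largest difference between the times. In non-invading samples its log2 signal was 6.11, 6.36, 6.51 and 6.53 at 72 h and 7.74, 7.74, 7.61, 7.62 and 8.28 at 96 h. In invading samples it was 6.31, 6.53, 6.43 and 6.57 at 72 h and 7.66, 7.20, 7.34, 7.25 and 7.84 at 96 h. All 10 samples of 96 h lay above all 8 samples of 72 h. The difference was 1.42 ± 0.15 (SE) on the log2 scale in non-invading cells, from 6.38 ± 0.20 (SD, n = 4) to 7.80 ± 0.28 (SD, n = 5), and 0.99 ± 0.15 (SE) in invading cells, from 6.46 ± 0.12 (SD, n = 4) to 7.46 ± 0.28 (SD, n = 5).

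Between the fractions Aldh1a1 differed by 0.08 ± 0.11 (SE) at 72 h and by -0.34 ± 0.16 (SE) at 96 h, with overlap at both times. The change of that difference, -0.43 ± 0.21 (SE), was the largest among the 10 genes and was not called (limma, adjusted p = 0.6). None of the 10 genes was called for it, and none had an unadjusted p under 0.05 in the same limma fit, beside 0.0150% of all genes called (3 of 19938).

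The other genes of the retinaldehyde group differed from Aldh1a1. Aldh1a7 (probe set 10466624) ranged from 4.57 to 5.08 over all 18 samples and differed by 0.12 between the times in non-invading cells and by 0.08 in invading cells, each with a standard error of 0.09. Olfactory receptor genes, which fibroblasts are taken not to use, give a guide to background on this array, with a median of 4.44 and a 95th percentile of 5.99 over 1027 genes. Aldh1a7 and Aldh1a2 both lay below that percentile, so for them a level above background is not established. The last 100 promoter letters of Aldh1a7 given above are nonetheless almost those of the Aldh1a1 window shown. Aldh1a1 and Aldh1a7 are close in sequence and cross-hybridisation between their probes was not tested.

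Aldh1a2 (probe set 10586865) ranged from 4.67 to 5.32. Its signal was higher in invading cells by 0.22 ± 0.09 (SE) at 72 h and 0.16 ± 0.07 (SE) at 96 h with overlap at both times, and the difference of 96 against 72 h was -0.15 in non-invading cells and -0.21 in invading cells. Aldh1a3 (probe set 10564417), another maker of retinoic acid, lay just above the background guide, between 6.02 and 6.54. It differed by -0.08 and 0.00 between the fractions at 72 and 96 h and by -0.20 and -0.12 between the times in non-invading and invading cells.

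Aldh3a2 (probe set 10386652), the fatty aldehyde dehydrogenase, was higher at 96 h in both fractions with a small spread. In non-invading samples its log2 signal was 9.92, 9.80, 9.80 and 9.86 at 72 h and 10.04, 10.11, 10.07, 10.04 and 10.14 at 96 h. In invading samples it was 9.92, 10.02, 10.05 and 9.91 at 72 h and 10.17, 10.08, 10.26, 10.14 and 10.33 at 96 h. The times did not overlap in either fraction, with differences of 0.23 ± 0.06 (SE) and 0.22 ± 0.06 (SE), ratios of 1.18 and 1.17. The invading cells were higher by 0.13 at 72 h and 0.11 at 96 h, with overlap.

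The enzymes of amino acid breakdown moved little. Aldh7a1 (probe set 10458960), which oxidises the semialdehyde of lysine breakdown, had a log2 signal of 10.40, 10.42, 10.56 and 10.50 at 72 h and 10.22, 10.27, 10.31, 10.29 and 10.35 at 96 h in non-invading samples. These times did not overlap, with a difference of -0.18 ± 0.06 (SE), while in invading cells they did, with a difference of -0.11 ± 0.06 (SE). Aldh6a1 (probe set 10401473), the methylmalonate semialdehyde dehydrogenase of valine breakdown, ranged from 8.74 to 9.31 and differed by no more than 0.15 in any comparison.

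Between 72 and 96 h, 2 of the 10 genes passed the adjusted p as higher in non-invading cells (Aldh1a1 and Aldh3a2) and 1 as lower (Aldh7a1), beside 15.4% of all genes higher and 12.2% lower. In invading cells 3 passed as higher (Aldh1a1, Aldh3a1 and Aldh3a2) and 1 as lower (Aldh1a2), beside 18.2% higher and 16.7% lower. The times did not overlap for 4 of the 10 genes in non-invading cells and for 2 in invading cells, beside 20.0% and 23.6% of all genes. The median log2 difference of the 10 genes was 0.14 in non-invading and 0.10 in invading cells, against -0.02 and -0.03 over all genes. With the repeated quantile normalization, 2620 genes passed as higher and 3477 as lower in non-invading cells, in place of 3071 and 2424. These comparisons use the same samples as those of the fractions.

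Among the time differences, the calls of Aldh3a1 and Aldh1a2 in invading cells rested on single samples. That of Aldh3a1 was lost without invading replicate 3 or 4 of 72 h or without invading replicate 1, 4 or 5 of 96 h, and over all samples left out in turn its log2 difference lay between 0.50 and 0.87. That of Aldh1a2 was lost without invading replicate 2 or 4 of 72 h or replicate 2 or 5 of 96 h, and that of Aldh7a1 in non-invading cells without replicate 3 of 72 h. The calls of Aldh1a1 and Aldh3a2 were kept without any 1 sample. Since Aldh1a1 was chosen because it follows time, this too is a description and no test.

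The share of each gene's variance over the 18 samples that lay between the fractions, between the times or within the groups sets the patterns side by side. For Aldh2 77.8% lay between the fractions and 2.43% between the times, and for Aldh3a1 66.1% and 10.9%. For Aldh1a1 1.40% lay between the fractions and 85.6% between the times, for Aldh3a2 17.6% and 63.2%, and for Aldh7a1 55.2% between the times. Most of the variance of Aldh1a7 and Aldh6a1 lay within the groups, 85.0% and 76.9%. Over all 13118 genes above the background guide, the median shares were 20.3% between the fractions, 20.9% between the times and 36.9% within the groups.

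**Figure D2:**
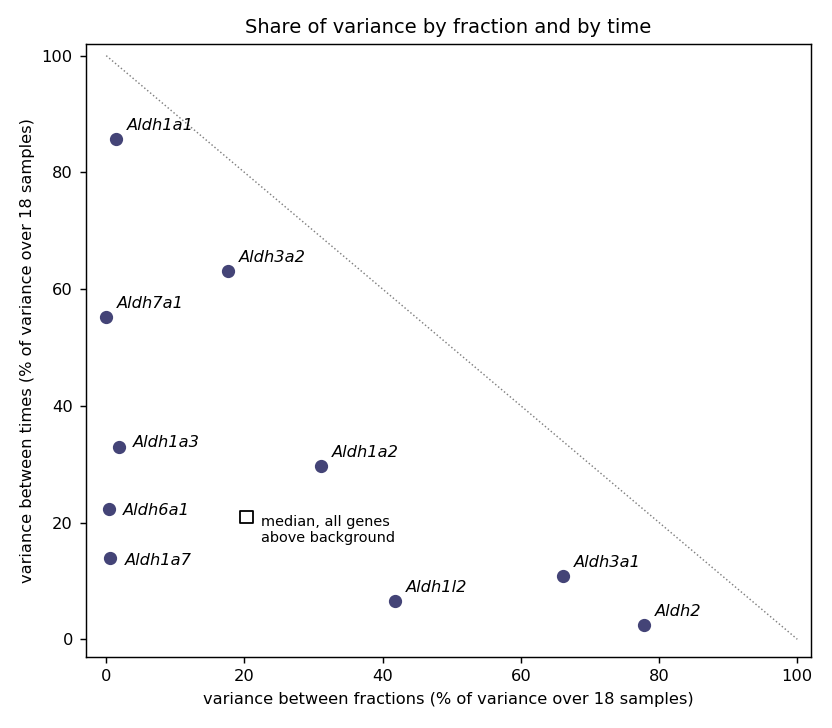
Share of the variance over 18 samples that lies between the invading and non-invading fractions (x axis, %) and between 72 and 96 h (y axis, %), for each of the 10 genes (filled points) and as the median of 13118 genes above background (open square); the dotted line marks a sum of 100%. Aldh2 and Aldh3a1 lie at the right and Aldh1a1 at the top left.

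Which genes had the pattern most like that of Aldh3a1 was read from Pearson's r over the 18 samples, among 13117 other genes above the background guide. The 5 highest were Myo1e, a class I myosin, with r = 0.95, Kdm1a, a histone demethylase, with 0.94, Adssl1, an adenylosuccinate synthase, with 0.94, Mamdc2 with 0.94 and Rab31, a small GTPase of vesicle transport, with 0.93. After the group means were removed, r was 0.81, 0.80, 0.92, 0.88 and 0.75 in that order. For Aldh3a1 and each of these genes, replicate 1 was the highest sample of both fractions at 96 h, and r without it was not computed. The difference between invading and non-invading cells was 1.20 at 72 h and 1.44 at 96 h for Adssl1 and 1.16 and 1.25 for Mamdc2, close to those of Aldh3a1, and 0.32 and 0.37 for Kdm1a.

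The 5 genes most like Aldh1a1 were Becn1, an autophagy factor, with r = 0.96, Bbs5, a subunit of the BBSome of cilia, with 0.95, Ctsh, cathepsin H, with 0.95, Irak1bp1 with 0.95 and Stx8, an endosomal syntaxin, with 0.94. Within the groups r was 0.60, 0.77, 0.49, 0.55 and 0.52. The difference between the times was 1.13 in non-invading and 0.99 in invading cells for Ctsh, near that of Aldh1a1, and between 0.41 and 0.61 for the other 4 genes. These genes were picked for their likeness out of all genes, and all points share the same arrays, so r is a description.

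**Figure D3:**
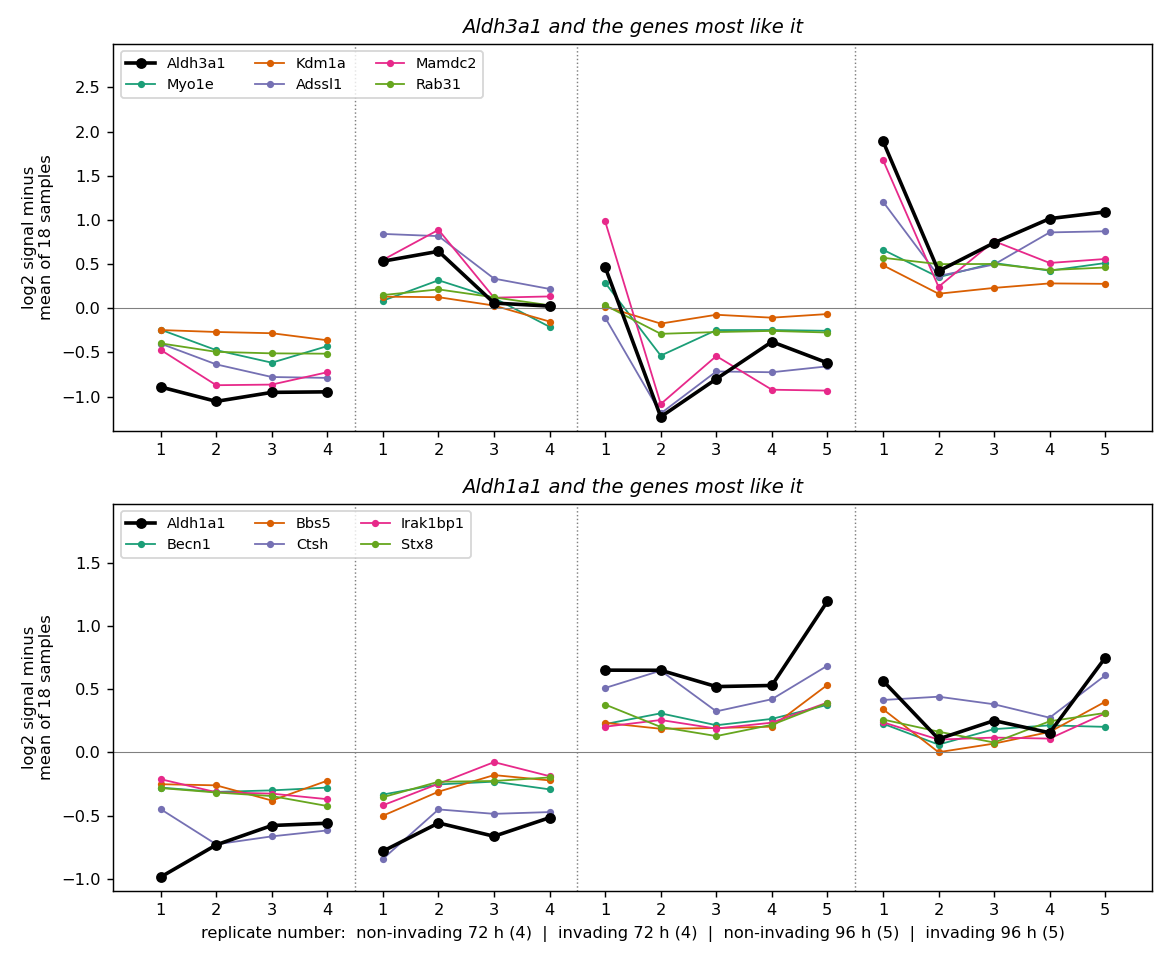
Log2 signal minus the mean of the 18 samples (y axis) for Aldh3a1 (top, black) and Aldh1a1 (bottom, black) and for the 5 genes most like each (colours), by sample (x axis, replicate numbers within the 4 groups, separated by dotted lines; lines only guide the eye). Aldh3a1 and its 5 genes are higher in the invading groups and high in both replicate 1 samples of 96 h, while Aldh1a1 and its 5 genes are higher in all samples of 96 h.

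Among the 10 genes themselves, the time pattern of Aldh1a1 was nearest to that of Aldh3a2 (r = 0.75 over 18 samples). Aldh2 and Aldh3a1, both higher in invading cells, had r = 0.66 over all samples but -0.51 within the groups. The Aldh3a1 and Aldh1l2 signals ran opposite ways both over all samples (r = -0.65) and within the groups (-0.59), and Aldh1a1 and Aldh3a1 had r = 0.23.

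The other 10 genes of the family, which were not among those chosen, were tested in the same fits. In invading cells at 72 h 4 of them were higher, none was lower and 6 did not pass, beside 13.0% of all genes higher and 13.5% lower. The largest change was that of Aldh16a1, a family member that in mammals lacks the catalytic cysteine, from 7.44 ± 0.10 (SD, n = 4) in non-invading to 7.98 ± 0.09 (SD, n = 4) in invading cells, a log2 difference of 0.54 (SE 0.08, adjusted p = 0.002). Aldh3b1, which oxidises lipid aldehydes at membranes, was higher by 0.42 (SE 0.10, adjusted p = 0.016), and Aldh4a1, the pyrroline-5-carboxylate dehydrogenase of proline breakdown, by 0.34 (SE 0.09, adjusted p = 0.028). Aldh1b1, a mitochondrial acetaldehyde dehydrogenase, rose by 0.23 (SE 0.07, adjusted p = 0.041), a call that was lost without non-invading replicate 2.

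In invading cells at 96 h 4 of the 10 were higher, 1 was lower and 5 did not pass, beside 16.7% and 14.7% of all genes. Aldh1l1, the cytosolic counterpart of Aldh1l2, was higher by 0.30 (SE 0.08, adjusted p = 0.015), Aldh3b1 by 0.30 (SE 0.07, adjusted p = 0.012), Aldh16a1 by 0.20 (SE 0.06, adjusted p = 0.021) and Aldh9a1, which acts on aminoaldehydes and in carnitine synthesis, by 0.20 (SE 0.05, adjusted p = 0.012). Aldh18a1, an enzyme of proline synthesis, was lower, with a difference of -0.17 (SE 0.06, adjusted p = 0.076), and this call was kept without 4 of the 10 samples left out in turn. After the repeated quantile normalization 7 were higher and 1 lower. The median log2 difference of the 10 was 0.15 at 72 h and 0.18 at 96 h.

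Between the times, Aldh9a1 was higher at 96 h in both fractions, by 0.26 (SE 0.06, adjusted p = 0.0033) in non-invading and 0.30 (SE 0.06, adjusted p = 0.00067) in invading cells. Aldh16a1 was lower at 96 h, with differences of -0.20 (SE 0.06, adjusted p = 0.027) and -0.55 (SE 0.06, adjusted p = 7e-06), and Aldh4a1 was lower in invading cells, with -0.34 (SE 0.10, adjusted p = 0.017). That made 1 higher and 1 lower of the 10 in non-invading cells and 1 higher and 2 lower in invading cells, close to the shares of all genes (15.4% higher and 12.2% lower, and 18.2% and 16.7%). For Aldh16a1 the difference between the fractions at 96 h minus that at 72 h was -0.34 (SE 0.09, adjusted p = 0.27), which did not pass, and 0 of the 10 passed for that contrast, with 1 at an unadjusted p under 0.05 in limma.

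**Figure D4:**
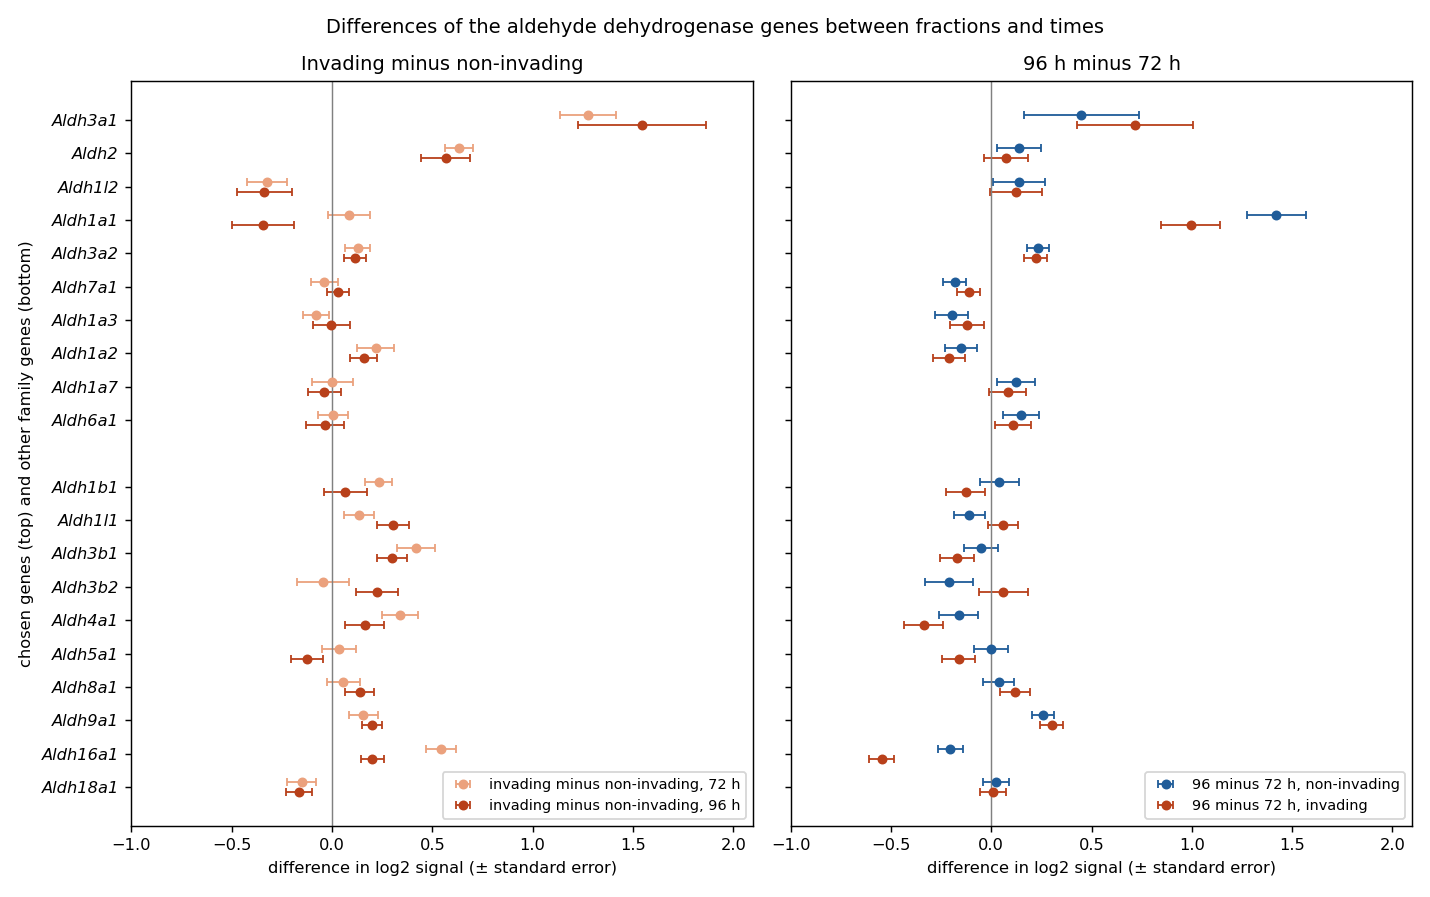
Difference in log2 signal (points) with its standard error (bars) between invading and non-invading cells at 72 and 96 h (left) and between 96 and 72 h in each fraction (right), for the 10 chosen genes (top) and the 10 other genes of the family (bottom). The largest values are 1.28 and 1.54 for Aldh3a1 between the fractions and 1.42 and 0.99 for Aldh1a1 between the times.

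Genes that act with the retinaldehyde dehydrogenases make retinaldehyde, carry retinoids or bind retinoic acid, and 21 of 22 listed were measured. At 72 h 7 were higher in invading cells, 1 was lower and 13 did not pass, beside 13.0% of all genes higher and 13.5% lower. At 96 h 5 were higher, 2 lower and 14 did not pass, beside 16.7% and 14.7% of all genes. There the repeated quantile normalization gave 15 higher and 2 lower, when more of all genes also passed as higher. Adh1, an alcohol dehydrogenase that oxidises retinol, was higher by 0.67 (SE 0.13, adjusted p = 0.0075) at 72 h and 0.68 (SE 0.10, adjusted p = 0.00076) at 96 h. Dhrs9, a retinol dehydrogenase, was lower, with differences of -1.15 (SE 0.27, adjusted p = 0.017) and -0.69 (SE 0.17, adjusted p = 0.011). Adh7 was higher at 96 h by 0.40 (SE 0.11, adjusted p = 0.023) and did not pass at 72 h. The retinoid receptor Rxra was higher by 0.50 (SE 0.09, adjusted p = 0.0057) at 72 h and 0.29 (SE 0.06, adjusted p = 0.0049) at 96 h. Rxrb was higher by 0.43 (SE 0.07, adjusted p = 0.0027) at 72 h and 0.35 (SE 0.06, adjusted p = 0.002) at 96 h.

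Over time, 2 of the 21 retinoid genes were higher and 4 lower at 96 h in non-invading cells, and 4 were higher and 7 lower in invading cells. Of all genes 15.4% were higher and 12.2% lower in non-invading cells and 18.2% and 16.7% in invading cells, so that the numbers of higher genes in both fractions and of lower genes in non-invading cells lay near these shares. Rdh10, the retinol dehydrogenase that supplies retinaldehyde to Aldh1a enzymes, was higher at 96 h by 0.67 (SE 0.16, adjusted p = 0.0072) in non-invading and 0.70 (SE 0.16, adjusted p = 0.004) in invading cells, the same direction as Aldh1a1. The receptors Rarg and Rara both passed as lower at 96 h in both fractions. Rarg differed by -0.31 (SE 0.06, adjusted p = 0.00081) in non-invading cells, and its mean went from 9.626 to 9.303 in invading cells. Rara differed by -0.38 (SE 0.06, adjusted p = 0.00022) in invading cells, and its mean went from 9.575 to 9.348 in non-invading cells. The median difference of the 21 genes was 0.11 between the fractions at both times, and -0.10 in non-invading and -0.12 in invading cells between the times.

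Since Aldh3a1 belongs to the gene battery of the aryl hydrocarbon receptor, the rest of that battery was read beside it, with 8 of 11 listed genes measured. At 72 h 1 was higher in invading cells, none lower and 7 did not pass, beside 13.0% of all genes higher and 13.5% lower. At 96 h 2 were higher and 6 did not pass, beside 16.7% higher and 14.7% lower. The numbers of higher genes thus lay near the shares of all genes. They became 3 and 4 after the repeated quantile normalization, when more of all genes also passed as higher. The gene that passed at both times was Nqo1, a quinone reductase that NRF2 also controls, which rose by 0.94 (SE 0.12, adjusted p = 0.0016) at 72 h and 1.18 (SE 0.12, adjusted p = 8.2e-05) at 96 h. The receptor Ahr was higher by 0.43 (SE 0.12, adjusted p = 0.025) at 96 h. Over time its signal was lower at 96 than at 72 h in non-invading cells, with a difference of -0.36 (SE 0.11, adjusted p = 0.031), while in invading cells the difference was -0.06 (SE 0.11, adjusted p = 0.77), which did not pass, and the change of the fraction difference between the times, 0.30 (SE 0.16, adjusted p = 0.63), did not pass either. Cyp1a1, a classical target of the receptor, had group means between 5.31 and 5.45, below the background guide, and Cyp1b1, another target, had group means between 10.74 and 11.28 and was lower at 96 than at 72 h in non-invading cells, with a difference of -0.49 (SE 0.18, adjusted p = 0.069), a call lost without 4 of the 9 samples in turn. The count at 72 h became 3 without non-invading replicate 2.

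The NRF2 list, which covers the response to oxidants and aldehydes and shares Nqo1 with that battery, had 12 of 14 genes measured. In invading cells 10 of them were higher at 72 h and 9 at 96 h, with none lower and 2 and 3 that did not pass. Of all genes 13.0% were higher and 13.5% lower at 72 h, and 16.7% and 14.7% at 96 h. Over time 9 were higher at 96 h and 3 did not pass in each fraction. The shares of all genes that were higher at 96 h were 15.4% in non-invading and 18.2% in invading cells. Gsta3, a glutathione transferase, was higher in invading cells by 0.38 (SE 0.11, adjusted p = 0.037) at 72 h and 1.07 (SE 0.19, adjusted p = 0.0016) at 96 h. Slc7a11, the cystine transporter, was higher in invading cells at 72 h by 0.78 (SE 0.17, adjusted p = 0.012) and did not pass at 96 h. Gsta4, a glutathione transferase that acts on lipid aldehydes, passed as higher in all 4 comparisons. In invading cells it was higher by 0.63 (SE 0.13, adjusted p = 0.011) at 72 h and 0.50 (SE 0.11, adjusted p = 0.005) at 96 h. At 96 against 72 h it was higher by 0.84 (SE 0.12, adjusted p = 0.00017) in non-invading cells, and its mean went from 11.92 to 12.63 in invading cells. The median difference of the 12 genes was 0.40 and 0.50 between the fractions at 72 and 96 h, and 0.45 between the times in either fraction, against at most 0.04 over all genes.

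Of 14 other enzymes of aldehydes and alcohols 12 were measured, and 7 were higher in invading cells at 72 h and 6 at 96 h, with none lower. The shares of all genes were 13.0% higher and 13.5% lower at 72 h, and 16.7% and 14.7% at 96 h. Besides Adh1, Akr7a5, an aldehyde reductase, was higher by 0.48 (SE 0.08, adjusted p = 0.0052) and 0.49 (SE 0.07, adjusted p = 0.00056), and Aox1, aldehyde oxidase, by 0.62 (SE 0.14, adjusted p = 0.015) at 72 h. Over time 6 were higher and 1 lower at 96 h in each fraction. The shares of all genes were 15.4% higher and 12.2% lower in non-invading cells, and 18.2% and 16.7% in invading cells. Ptgr1, which reduces unsaturated aldehydes and ketones, was higher by 0.53 (SE 0.05, adjusted p = 8.2e-06) and 0.58 (SE 0.05, adjusted p = 1.2e-06), Glo1, which clears methylglyoxal, by 0.43 (SE 0.08, adjusted p = 0.0012) and 0.42 (SE 0.08, adjusted p = 0.0008), and Akr7a5 was the gene that was lower, with -0.45 (SE 0.08, adjusted p = 0.00057) and -0.44 (SE 0.08, adjusted p = 0.00042).

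Around Aldh1l2, 11 of 13 listed folate enzymes were measured. At 72 h 2 were higher and 1 lower in invading cells, near the shares of all genes (13.0% and 13.5%). At 96 h 6 were higher and 1 lower, beside 16.7% and 14.7% of all genes. Mthfd2l, a mitochondrial methylenetetrahydrofolate dehydrogenase, was higher by 0.88 (SE 0.14, adjusted p = 0.0032) and 0.85 (SE 0.13, adjusted p = 0.00067), opposite to Aldh1l2. Slc25a32, the mitochondrial folate carrier, was lower, with differences of -0.31 (SE 0.08, adjusted p = 0.03) and -0.33 (SE 0.10, adjusted p = 0.034), as Aldh1l2 was. The count at 72 h, 3 in either direction, became 5 without invading replicate 4.

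Of 18 listed genes of branched-chain amino acid and lysine breakdown, the pathways of Aldh6a1 and Aldh7a1, 17 were measured. At 72 h 5 were higher and 1 lower in invading cells, beside 13.0% and 13.5% of all genes. The count in either direction became 2 without non-invading replicate 3 and 3 without replicate 4. Bckdha had the largest difference at 72 h, 0.66 higher in invading cells (SE 0.07, adjusted p = 0.00071). It also passed as higher at 96 h, with means of 9.02 in invading and 8.50 in non-invading cells, and both calls were kept without any 1 sample. At 96 h 2 were higher and 3 lower, near the shares of all genes (16.7% and 14.7%). These became 5 higher and 2 lower after the repeated quantile normalization, when more of all genes also passed as higher. Over time 9 were higher and 2 lower at 96 h in each fraction. Of all genes 15.4% were higher and 12.2% lower in non-invading cells, and 18.2% and 16.7% in invading cells. Hibch, which precedes Aldh6a1 in valine breakdown, was higher by 0.56 (SE 0.07, adjusted p = 4.3e-05) and 0.56 (SE 0.07, adjusted p = 1.6e-05), Hibadh, which makes its substrate, by 0.57 (SE 0.05, adjusted p = 1e-06) in invading cells, and Dld, a subunit of the branched-chain dehydrogenase, by 0.57 (SE 0.08, adjusted p = 0.00016) and 0.75 (SE 0.08, adjusted p = 5.4e-06). Hibadh also passed as higher in non-invading cells, where its mean went from 11.01 at 72 h to 11.39 at 96 h. Aldh6a1 itself was higher by 0.15 and 0.11 without a call in either fraction.

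The fibroblast label was checked on markers. All 10 fibroblast markers lay above the background guide, with a log2 of their summed signal between 15.53 and 15.68 in invading and 15.66 and 15.76 in non-invading cells at 72 h, and between 15.60 and 15.76 and 15.67 and 15.81 at 96 h. Of all genes 13.5% were lower in invading cells at 72 h and 14.7% at 96 h. At each time 4 of the 10 markers, Col1a1, Col1a2, Col3a1 and S100a4, were lower in invading cells, the direction opposite to Aldh3a1 and Aldh2. Of the others 1, Pdgfrb, a receptor of platelet-derived growth factor, was higher at 72 h, by 0.27 (SE 0.08, adjusted p = 0.038). The collagen gene Col3a1 had the largest of these 4 differences, -0.35 (SE 0.08, adjusted p = 0.013) at 72 h and -0.35 (SE 0.08, adjusted p = 0.0071) at 96 h.

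Of 10 epithelial markers 4 lay above the guide, Krt8 (mean 7.57), Krt18 (6.27), Cdh1 (6.19) and Sftpb (6.05), with Epcam, Sftpc and Scgb1a1 among those below. The summed level of all 10 was 9.46 to 9.67 in invading and 9.24 to 9.47 in non-invading cells at 72 h and 9.39 to 9.45 and 9.11 to 9.35 at 96 h. Of the 10, 1 was higher in invading cells at 72 h and 3 at 96 h, beside 13.0% and 16.7% of all genes. Krt8, a keratin, was higher at both times, by 0.53 and 0.32. The calls of Epcam and Cdh1 at 96 h were each kept without only 4 of the 10 samples left out in turn. Of 6 endothelial markers 2 lay above the guide, Vwf (6.62) and Tie1 (6.30), with Pecam1 and Cdh5 among those below. The sum of the 6 was 8.21 to 8.61 over all samples, and none was called between the fractions. Of 6 leukocyte markers 2 lay above the guide, Cd68 (7.18) and Cd3e (6.32), with Ptprc among those below. The sum of the 6 was 8.71 to 8.90 in invading and 8.61 to 8.68 in non-invading cells at 72 h and 8.56 to 8.89 and 8.34 to 8.52 at 96 h. None of the 6 passed at 72 h, but 2 were higher in invading cells at 96 h, the direction of Aldh3a1 and Aldh2, beside 16.7% of all genes. These were Cd68, a lysosomal protein of macrophages with a mean signal of 7.18, by 0.56 (SE 0.11, adjusted p = 0.0033) without overlap, and the lysozyme gene Lyz2, with a mean of 5.43 below the guide, by 0.41 (SE 0.13, adjusted p = 0.033). After the repeated quantile normalization, 6 epithelial, 3 endothelial and 3 leukocyte markers were higher in invading cells at 72 h and 7, 5 and 5 at 96 h. Of all genes 5043 and 7695 were then higher.

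All 4 mesothelial markers lay above the guide, with means of 10.17 for Msln, 6.81 for Wt1, 6.30 for Lrrn4 and 6.14 for Upk3b. Their summed level was 9.915 to 10.38 in invading and 10.56 to 11.01 in non-invading cells at 72 h. At 96 h it was 9.91 to 10.55 and 10.52 to 11.06. Of the 4, 2 were lower in invading cells at each time, opposite to Aldh3a1 and Aldh2. Of all genes 13.5% were lower at 72 h and 14.7% at 96 h. Msln differed by -0.71 (SE 0.18, adjusted p = 0.022) at 72 h and -0.63 (SE 0.17, adjusted p = 0.017) at 96 h, and Lrrn4 by -0.48 (SE 0.09, adjusted p = 0.0075) and -0.86 (SE 0.12, adjusted p = 0.00039). Upk3b and Wt1 did not pass, with differences of 0.02 and 0.06 at 72 h and 0.01 and -0.07 at 96 h. The part of other cell states in these differences was not tested, and in bulk RNA fewer cells of a kind and less RNA per cell cannot be told apart.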

How the data were processed

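RNA of 18 samples in 4 groups was hybridised to single-colour Affymetrix arrays for mouse genes. The log2 values deposited by the authors are gene-level RMA signals from Affymetrix Expression Console (1.2 in the submitters' processing notes), background corrected and sketch-quantile normalized. They ran from 2.94 to 14.7, sample medians from 6.46 to 6.65, and were used unchanged.

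Of 35556 probe sets, 21789 carry 1 symbol in the platform annotation, 1621 several and 12146 none, giving 19938 genes, each read from its brightest probe set with 1 symbol. Each of the 10 genes has 1 such probe set. Groups came from the sample titles. With limma 3.58.1 in R 4.3.3, fractions were compared at each time in separate fits, and times, and the difference between times, in 1 fit of all samples. P-values were adjusted by Benjamini-Hochberg over all probe sets, and a gene passed under 0.10. The fits were tested on simulated data.

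The 10 genes and the lists were chosen with earlier results of these data known. Named were all 10, the 5 genes most like Aldh3a1 and Aldh1a1 each, up to 4 genes of each list with the largest differences past the test, and defining cell type markers. Alternatives were another quantile normalization, centring, a filter at a linear signal of 100, probe sets with 1 symbol, a trended robust variance, other samples in the fit, a replicate block, an adjusted p under 0.05, a ratio above 1.5, and leaving out each sample.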

Additional observations from a re-analysis of the deposited data

Results flagged for a closer look

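In 2 of the 40 groups of values (10 genes in 4 groups), the highest or lowest sample stood far from the rest by Dixon's criterion, and chance alone gives about 1 in 20, so 2 are expected. The Aldh1a1 log2 signal of non-invading replicate 5 at 96 h was 8.284, above the next sample at 7.74, a gap of 0.807 of the range of that group. The Aldh6a1 log2 signal of invading replicate 2 at 96 h was 8.738, below the next sample at 9.055, a gap of 0.742 of the range.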

How the results depend on the processing

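Of 1065 differences of single genes of the 10 recomputed in 27 settings, none that passed changed sign. The sign changed, for differences that did not pass, in 22 of all 324 differences between fractions (Aldh1a1, Aldh1a3, Aldh1a7 and Aldh6a1, at most 0.084 in size), 2 of 494 between times (Aldh2, 0.0724) and 22 of 247 values of the fraction difference at 96 h minus that at 72 h. For Aldh1a7 the last of these was 0.0257 after the repeated quantile normalization and 0.0007 without replicate 1 of both fractions at 96 h, against -0.04. Over samples left out in turn the same quantity ran from -0.1081 to 0.0526 for Aldh1a7, -0.0460 to 0.0157 for Aldh3a2, -0.1326 to 0.0064 for Aldh1a2, -0.1399 to 0.0763 for Aldh1l2, -0.1487 to 0.0268 for Aldh2 and -0.0867 to 0.0364 for Aldh6a1. The number of the 10 genes that passed was 5 in place of 3 at 72 h after centring, and 5 in place of 3 at 96 h in a fit of probe sets with 1 symbol, where fewer probe sets are tested. With a ratio above 1.5 required as well, it was 1 at 96 h, 1 in place of 3 between times in non-invading cells and 2 in place of 4 in invading cells, where an adjusted p under 0.05 also gave 2. Between times in invading cells it ran from 2 to 4 over samples left out in turn, the lowest without invading replicate 4 of 72 h. Of 826 counts for the other gene lists, 767 stayed within 1.5 times and 59 did not. The cause of these changes was not tested. The replicate numbers were checked for pairing: samples of the same number correlated, after removal of group means, at -0.07 to 0.09 at 72 h and 0.05 to 0.17 at 96 h. At 96 h 4 of 5 samples correlated most with the partner of equal number, and at 72 h only replicate 2 did. The labels do not tie a number to a shared culture, so the main fits took no pairing, although pairing at 96 h stays possible. For receptor levels taken from the arrays the study names a paired t-test. With the replicate number as a block, 3 of the 10 genes passed at 72 h, 4 at 96 h, with Aldh1a1 added, and 0 for the change of the fraction difference. All 5 differences of Aldh1a1 within a number at 96 h were negative, from -0.54 to -0.08. The Aldh3a1 differences within a number at 96 h were 1.43, 1.65, 1.54, 1.39 and 1.71. Their SD was 0.14, against 0.55 in the invading and 0.63 in the non-invading samples. Averaging the probe sets of a gene was not run, since each of the 10 genes has 1. The precision is limited by 4 or 5 arrays a group, and Aldh1a2 and Aldh1a7 lie within the range of background.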
